A study of Danio rerio with 15 samples.

Results

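A group of 9 genes of branched actin assembly were followed in neutrophils sorted from zebrafish embryos with mutations in tet2, tet3 or both, which encode dioxygenases that oxidise 5-methylcytosine. They are wasb, a zebrafish gene for the Wiskott-Aldrich syndrome protein (WASp), coro1a, the gene for coronin 1A, and 7 genes for subunits of the Arp2/3 complex, namely arpc1a, arpc1b, arpc2, arpc3, actr2a, actr2b and actr3. They were chosen by name, as every row of the deposited expression table that carries one of these symbols. That gave 9 genes in 10 rows of 15937 genes, because actr3 stands on 2 identifiers. The 15 libraries form 5 groups of 3, each from cells with the reporter mpx:GFP, in which the promoter of the myeloperoxidase gene mpx drives green fluorescent protein. Embryos of 2 days post fertilization (dpf) were tet2/tet3 double mutants, tet2 mutants, tet3 mutants or wildtype, and wildtype embryos of 1.5 dpf, 35 hours in the labels, made up the fifth group. Single mutants are labelled tet2-/- and tet3-/-, that is homozygous, and double mutants tet2/3DM. Alleles, crosses and the number of embryos per library are not stated in the labels. Nor is it stated that replicates are different clutches, so the spread behind each p-value is that between libraries and could be technical.

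WASp is an actin nucleation promoting factor of blood cells. When the GTPase Cdc42 and membrane lipids release it from autoinhibition, it binds the Arp2/3 complex and actin monomers and starts a new filament branch on the side of an existing one. The complex consists of the actin-related proteins Arp2 and Arp3, which together mimic the start of a filament, and of ARPC subunits that hold them on the mother filament. Coronin 1A is an actin-binding protein of leukocytes that associates with Arp2/3 and takes part in the turnover of branched networks. Loss of WASp in humans causes the immunodeficiency Wiskott-Aldrich syndrome, and in zebrafish it impairs the movement of leukocytes to wounds.

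Values below are normalised read counts, meaning reads scaled by a factor per library. Recovered read totals ran from 5.64 to 31.06 M (mega reads), with double mutants deepest and tet3 replicates 1 and 2 shallowest. The fewest reads behind any member value were 245, for actr2b, and wasb never rested on fewer than 655. Counts of different genes were not corrected for transcript length, so only ratios between libraries are compared. Changes are log2 differences of value + 1 from limma, with 95% intervals and with Benjamini-Hochberg adjustment over 15933 genes tested at a threshold of 0.05. All 10 rows passed the filter on low values. Transcript counts of tet2 and tet3 are no check of the genotype labels. tet2 was at 1643 ± 304 in tet2 mutants, 1503 ± 973 in double mutants and 1713 ± 176 in wildtype at 2 dpf, and tet3 was at 1993 ± 399 in tet3 mutants, 2324 ± 665 in double mutants and 1374 ± 230 in wildtype (SD, n = 3 each). None of the 10 neutrophil markers found passed the test in double mutants against wildtype at 2 dpf, beside 8.68% of all genes. Of these, 8 had a log2 change below 0. Groups did not overlap in 4 that were lower and 1 that was higher, beside 15.7% and 15.5% of all genes. Their summed level ran from 171051 to 214965 in double mutants and from 212828 to 272450 in wildtype. The marker lyz ran from 71695 to 79701 in double mutants and from 105758 to 141152 in wildtype. mpx ran from 33304 to 49243 in double mutants and from 33867 to 38570 in wildtype.

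wasb was the member that changed in double mutants. Its normalised counts were 648.7, 595.6 and 617.5 in double mutants, against 2817, 2722 and 2689 in wildtype at 2 dpf. The groups did not overlap, and the replicates of each lay close together, with means of 620.6 ± 26.7 in double mutants and 2743 ± 66.7 in wildtype (SD, n = 3 each). wasb fell by 2.14 on the log2 scale (SE 0.29, interval -2.75 to -1.54), or to 0.226-fold, with a limma adjusted p = 0.00025. By p it ranked 80 among the 15933 genes. Of the 10 rows, 1 passed the threshold and it was lower, beside 8.68% of all genes in either direction and 5.27% of all genes lower. edgeR's quasi-likelihood test on recovered reads gave wasb an adjusted p = 0.00041 and DESeq2 gave 4.4e-10. With each library left out in turn its log2 change stayed between -2.18 and -2.11, with limma adjusted p from 3.8e-05 to 0.0021. In bulk samples of sorted cells, fewer cells of a type that expresses a gene and less RNA per cell cannot be told apart.

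**Figure D1:**
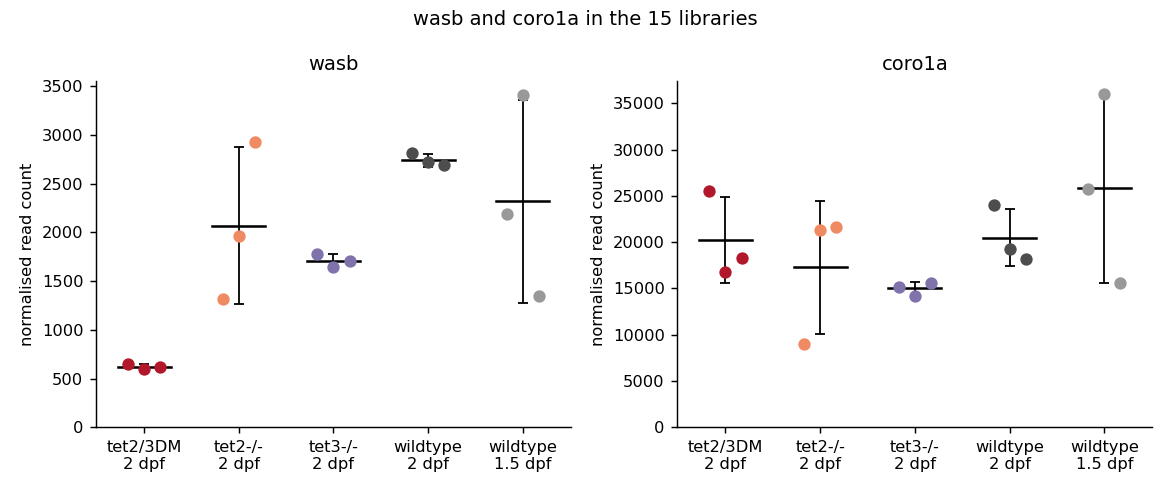
Normalised read counts of wasb and coro1a in the 15 libraries, with a point for each library and a bar with an error bar for the mean ± SD of each group (n = 3). The double mutant wasb points, at 595.6 to 648.7, lie below every other library, whereas coro1a of the same libraries overlaps wildtype at 2 dpf.

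In single mutants wasb lay between the double mutants and wildtype. It was at 1320, 1966 and 2928 in tet2 mutants and at 1778, 1642 and 1707 in tet3 mutants. tet2 mutants spanned a wide range that reached past wildtype, while all tet3 libraries lay below all wildtype libraries of 2 dpf. The log2 change was -0.48 in tet2 mutants against wildtype (interval -1.09 to 0.13, limma adjusted p = 0.87) and -0.68 in tet3 mutants against wildtype (interval -1.29 to -0.08, adjusted p = 0.16). Neither passed the threshold. The tet2 change was -0.19 without tet2 replicate 1 and -0.77 without tet2 replicate 3. A fit to the tet3 and wildtype libraries alone gave an adjusted p = 0.00012 with the same change, and a fit with library weights gave 0.0082. These fits also called more of all genes, 3912 and 4005 against 1159 in the main fit. With the level of hsp70l, a heat shock gene described below, as a covariate, the tet3 change was -0.38 with an adjusted p = 0.81.

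Double mutants were also below each single mutant in wasb. The log2 change was -1.66 against tet2 mutants (interval -2.27 to -1.06, limma adjusted p = 0.0027), where 4.45% of all genes passed the threshold. Fitted on those 2 groups alone the adjusted p was 0.065, and with hsp70l as a covariate the change was -1.44 with an adjusted p = 0.21. Against tet3 mutants the change was -1.46 (interval -2.07 to -0.85, adjusted p = 0.011), where 2.33% of all genes passed. That call was lost without tet3 replicate 1 (-1.43, adjusted p = 0.058) and without both shallow tet3 libraries (-1.46, adjusted p = 0.39), at nearly the same size of change. wasb was the 1 member past the threshold in both of these comparisons, which share the double mutant libraries.

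The test for interaction asks whether the change with both genes lost differs from the sum of the changes in the single mutants. For wasb it gave -0.98 on the log2 scale (interval -1.84 to -0.12, unadjusted p = 0.028), and the adjusted p of 0.52 did not pass. With library weights the interaction was -1.23 with an adjusted p = 0.0068, in a fit that called 824 of all genes, against 53 in the main fit. No member passed this test, and 0.333% of all genes did.

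Wildtype embryos of both ages overlapped in wasb. It was at 2817, 2722 and 2689 at 2 dpf, against 2192, 3413 and 1349 at 1.5 dpf, where the replicates lay far apart. The log2 change of 2 dpf over 1.5 dpf was 0.34 (interval -0.26 to 0.95, adjusted p = 0.42). It was 0.67 without replicate 2 and 0.0 without replicate 3 of the younger group, and -0.04 with hsp70l as a covariate. Against the younger wildtype, wasb was lower in double mutants by a log2 change of -1.8 (interval -2.41 to -1.19, limma adjusted p = 0.00089), in a comparison in which 14.2% of all genes passed. From lowest to highest mean the groups were double mutants, tet3 mutants, tet2 mutants, wildtype at 1.5 dpf and wildtype at 2 dpf. Only double mutants were separated by the test from their neighbour in that order, and the differences between tet2 and tet3 mutants (0.2, adjusted p = 0.7), between tet2 mutants and wildtype at 1.5 dpf (-0.14, adjusted p = 0.77) and between the wildtype ages did not pass.

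The level of a heat shock gene differed between several of these groups. hsp70l, a heat-inducible chaperone gene, ranged from 5505 to 156506 in double mutants, from 208418 to 564696 in tet2 mutants, from 17123 to 17787 in tet3 mutants, from 367872 to 426506 in wildtype at 2 dpf and from 4965 to 10181 in wildtype at 1.5 dpf. Double mutants, tet3 mutants and wildtype at 1.5 dpf thus all had lower hsp70l than wildtype at 2 dpf. With the log2 level of hsp70l in the model, the double mutant change of wasb was -1.9 and its adjusted p was 0.061, so the call was lost with little change in size. Under that model 159 genes in all passed in double mutants, against 1383 without it. The part of hsp70l in the wasb result was not tested further.

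Markers of other cell types moved in double mutants too, among them those of macrophages, which also express WASp. Of 14 macrophage markers 6 were lower and 0 higher in double mutants against wildtype at 2 dpf, beside 5.27% of all genes lower. Their median log2 change was -0.57. The 6 were marco, a scavenger receptor gene, the complement genes c1qa, c1qb and c1qc, the galectin-binding protein gene lgals3bpb and irf8, a transcription factor gene of macrophage fate. marco averaged 876.8 ± 85.2 in double mutants and 3873 ± 52.6 in wildtype (SD, n = 3 each). The other 8 did not pass the test, among them mpeg1.1 and csf1ra. mpeg1.1 averaged 6752 ± 951 in double mutants and 9199 ± 510 in wildtype without overlap (limma adjusted p = 0.3), and csf1ra 6083 ± 403 in double mutants and 6726 ± 394 in wildtype (adjusted p = 0.79). The cathepsin gene ctss2.1 was higher without overlap, at 12990 ± 6170 in double mutants and 6377 ± 957 in wildtype (log2 change 0.93, adjusted p = 0.12). So was cd74a, at 69.9 ± 35.8 in double mutants and 21.4 ± 11.8 in wildtype (1.73, adjusted p = 0.3). Among the 14 markers the groups did not overlap in 8 that were lower and 2 that were higher, beside 15.7% and 15.5% of all genes. The summed level of the 14 markers ran from 32401 to 51742 in double mutants and from 47853 to 53170 in wildtype, and none of them was at 0 in any group as a whole. Of 12 endothelial markers 7 were lower (median log2 change -1.48), and of 10 muscle markers 5 were lower (-2.82). Of 7 pigment cell markers 5 were higher (3.27) and of 8 neural markers 2 were higher (0.89). None of 7 epidermis and of 7 erythroid markers passed. Among all genes 8.68% passed in either direction and 5.27% were lower. The summed level ran from 1918 to 2641 in double mutants and from 7478 to 8113 in wildtype for the endothelial list. It ran from 820 to 15383 in double mutants and from 13368 to 14437 in wildtype for muscle, from 4259 to 8278 in double mutants and from 571 to 702 in wildtype for pigment cells, and from 8350 to 19723 in double mutants and from 6035 to 6947 in wildtype for the neural list. The part of RNA from these cell types in the wasb result was not tested.

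coro1a passed the test in none of the comparisons in the main fit. Its counts were 25481, 16765 and 18342 in double mutants, against 23999, 19311 and 18170 in wildtype at 2 dpf, and the groups overlapped. The log2 change was -0.03 (interval -0.72 to 0.65, limma adjusted p = 0.97), an interval that lies wholly above that of wasb. In tet2 mutants coro1a was at 9002, 21289 and 21609, with 1 library far below the others, and the change against wildtype was -0.34 (interval -1.02 to 0.34, adjusted p = 0.93). In tet3 mutants it was at 15198, 14187 and 15639, below every wildtype library of 2 dpf, with a change of -0.44 (interval -1.12 to 0.24, adjusted p = 0.45). The fit to the tet3 and wildtype groups alone, which called 3912 of all genes against 1159 in the main fit, gave that difference an adjusted p = 0.0095. At 1.5 dpf wildtype libraries were at 25775, 36047 and 15569, so that the ages overlapped, and the change of 2 dpf over 1.5 dpf was -0.26 (interval -0.94 to 0.42, adjusted p = 0.61). Mutants against the younger wildtype, which mix genotype and age, passed only in alternative limma settings. With library weights double mutants (-0.48, adjusted p = 0.0096) and tet3 mutants (-0.78, adjusted p = 0.0062) did. tet2 mutants did with quantile normalization (-0.78, adjusted p = 0.042) and without wildtype 1.5 dpf replicate 3 (-0.92, adjusted p = 0.047).

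Set against coro1a in the same library, wasb was at 2.55, 3.55 and 3.37% of the coro1a count in double mutants, against 11.7, 14.1 and 14.8% in wildtype at 2 dpf. The share was 14.7, 9.24 and 13.6% in tet2 mutants, 11.7, 11.6 and 10.9% in tet3 mutants, and younger wildtype libraries of 1.5 dpf had 8.5, 9.47 and 8.67%. The double mutant shares lay below those of all other libraries. These are shares of counts that were not corrected for transcript length, so they are read between libraries only.

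None of the 8 Arp2/3 rows passed the test in double mutants against wildtype. Their log2 changes ran from -0.28 for arpc2 to 0.32 for arpc1a, with limma adjusted p from 0.3 to 0.98 and a median of -0.04, beside a median of 0.01 over all genes. The lowest bound of any of their 95% intervals was -0.85, so that no interval reached that of wasb. actr2a and actr2b encode Arp2. actr2a was at 5694, 5515 and 7350 in double mutants, against 5960, 5544 and 4884 in wildtype (log2 change 0.17, interval -0.36 to 0.71). actr2b, its paralog, was at 624.2, 905.6 and 818.2 in double mutants, against 726.6, 638.9 and 853.5 in wildtype (0.07, interval -0.41 to 0.56). Groups overlapped in both genes.

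actr3 encodes Arp3. Under the identifier ENSDARG00000091138 it was at 6300, 4039 and 5272 in double mutants, against 6024, 5249 and 4854 in wildtype (log2 change -0.06, interval -0.57 to 0.44). Under ENSDARG00000100510, which is not in the gene name table used here, it was at 10250, 6854 and 8514 in double mutants, against 10781, 8859 and 8255 in wildtype (-0.13, interval -0.67 to 0.4). The first row was 0.557 to 0.633 times the second in all 15 libraries, so the rows carry nearly the same profile, and how reads were divided between them is uncertain.

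**Figure D2:**
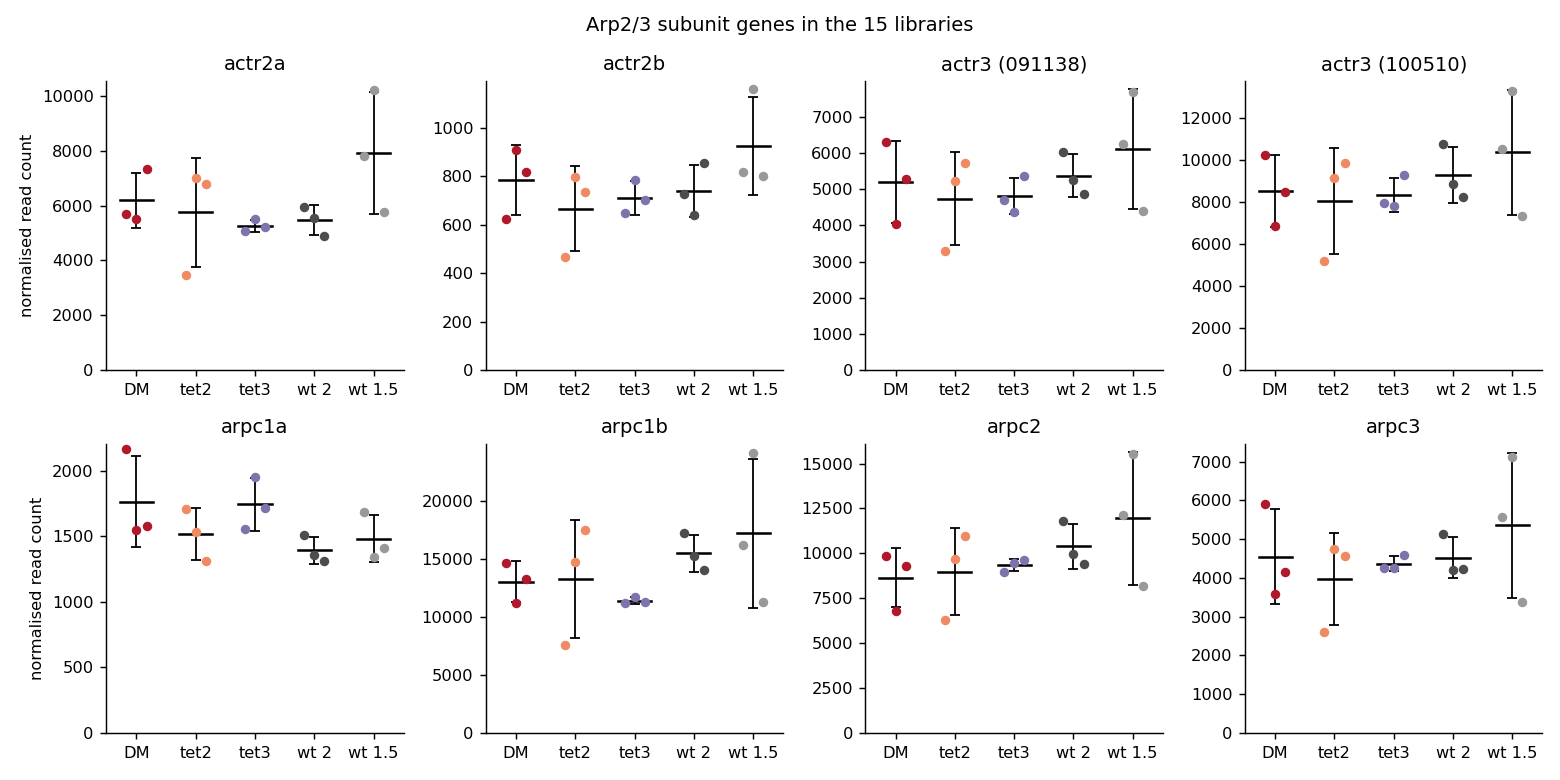
Normalised read counts of the 8 Arp2/3 rows, 1 panel each, in the 15 libraries; points are libraries and bars with error bars are the mean ± SD of each group (n = 3). In most panels the groups overlap, and the lowest point is tet2 replicate 1 and the highest is wildtype at 1.5 dpf, replicate 2, except for arpc1a.

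Among the ARPC subunits, arpc2, which with ARPC4 forms the core that grips the mother filament, was at 9858, 6798 and 9285 in double mutants, against 11807, 9984 and 9420 in wildtype (log2 change -0.28, interval -0.79 to 0.23). arpc3, a small subunit that binds Arp3, was at 5910, 3572 and 4158 in double mutants, against 5137, 4191 and 4233 in wildtype (-0.02, interval -0.6 to 0.56). In both genes the groups overlapped. arpc1b, the ARPC1 form that predominates in human blood cells, was at 14608, 11170 and 13288 in double mutants, against 17185, 15217 and 14022 in wildtype (-0.25, interval -0.85 to 0.34), and here the highest double mutant library lay within the wildtype range.

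arpc1a, its paralog, was the subunit gene whose double mutant libraries all lay on one side of wildtype. It was at 2163, 1545 and 1579 in double mutants and at 1559, 1956 and 1718 in tet3 mutants, against 1511, 1357 and 1311 in wildtype at 2 dpf. Every library of both mutants lay above every wildtype library, but the log2 change of 0.32 in each did not pass (limma adjusted p = 0.3 in each). Of the 10 rows, 2 had libraries that did not overlap between double mutants and wildtype, arpc1a above and wasb below, beside 31.2% of all genes.

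The share of arpc1b in the summed counts of arpc1b and arpc1a was lower in these mutants. Both genes entered into this, as the log2 change of arpc1b was -0.25 in double mutants and -0.44 in tet3 mutants. Double mutant libraries had shares of 87.1, 87.8 and 89.4% and tet3 mutant libraries of 87.7, 85.7 and 86.7%, against 91.9, 91.8 and 91.5% in wildtype at 2 dpf. The difference from wildtype was -3.62 percentage points in double mutants and -4.99 in tet3 mutants, each with an exact two-sided permutation p = 0.1, the smallest that 3 libraries against 3 allow. In tet2 mutants the share was 81.7, 90.6 and 93.0%, which straddles wildtype (difference -3.31 points, exact permutation p = 0.6). It was 90.6, 94.7 and 88.9% in wildtype at 1.5 dpf, also on both sides of the 2 dpf values (exact permutation p = 0.9). In a RefSeq gene table of zebrafish the genes lie side by side on one chromosome with 1 other gene and 0 protein-coding genes between them. actr2a held 85.1 to 90.5% of the summed counts of actr2a and actr2b in all 15 libraries, and its share differed from the same comparison groups by at most 1.42 points in size (exact permutation p from 0.5 to 1.0). As counts were not corrected for transcript length, the shares of both pairs are read between libraries only.

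Neither single mutant gave a call for any member against wildtype. In tet2 mutants 0 of 10 rows passed, beside 0.0314% of all genes higher and 0.0690% lower, and the Arp2/3 changes ran from -0.3 to 0.12 with limma adjusted p from 0.93 to 1. Groups overlapped in all 10 rows, with no overlap in 11.7% of all genes. In tet3 mutants 0 of 10 passed, beside 7.27% of all genes, and the Arp2/3 changes ran from -0.44 for arpc1b to 0.32 for arpc1a, with adjusted p from 0.3 to 0.94. Libraries of tet3 mutants and wildtype did not overlap in 4 rows, wasb, coro1a and arpc1b below and arpc1a above, beside 39.2% of all genes. arpc1b was at 11164, 11729 and 11241 in tet3 mutants, against 17185, 15217 and 14022 in wildtype. In the fit to these groups alone, which called 3912 of all genes, its change of -0.44 had an adjusted p = 0.0056. At an unadjusted limma p under 0.05, wasb was the 1 row in tet3 mutants, where 18.13% of all genes had a p no larger than its own. In tet2 mutants 0 rows were found. The lowest p of the rows was again that of wasb, and 13.02% of all genes had a p no larger. edgeR and DESeq2 on recovered reads also called 0 members in either single mutant. Markers of other cell types also differed in tet3 mutants. Of 10 muscle markers 6 were lower, and 4 of 12 endothelial, 3 of 7 pigment cell and 2 of 7 epidermis markers were higher. Among all genes 7.27% passed in either direction. None of the neutrophil, macrophage, erythroid or neural markers passed. Summed epidermis levels ran from 58544 to 74607 in tet3 mutants and from 23925 to 30241 in wildtype. The part of these cell types in the tet3 values was not tested.

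Between the wildtype ages 0 of 10 rows passed, although 20.8% of all genes did. The Arp2/3 changes of 2 dpf over 1.5 dpf ran from -0.5 for actr2a to -0.08 for arpc1a, all below 0, with limma adjusted p from 0.17 to 0.86. actr2a was at 5960, 5544 and 4884 at 2 dpf, against 7802, 10201 and 5771 at 1.5 dpf, with 1 younger library inside the older range. No row had ages without overlap, beside 43.3% of all genes. An unadjusted limma p under 0.05 was found in 0 rows, and at least the 20.8% of all genes called here had one. edgeR and DESeq2 on recovered reads called 0 members here too. In the interaction the Arp2/3 estimates ran from -0.11 to 0.49 and coro1a was at 0.75, with adjusted p from 0.75 to 0.98 over these 9 rows. The median log2 change over all 10 rows was -0.05 in double mutants, -0.24 in tet2 mutants and -0.15 in tet3 mutants against wildtype, and -0.16 between the ages, while the median over all genes lay between -0.04 and 0.01 in these 4 comparisons.

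**Figure D3:**
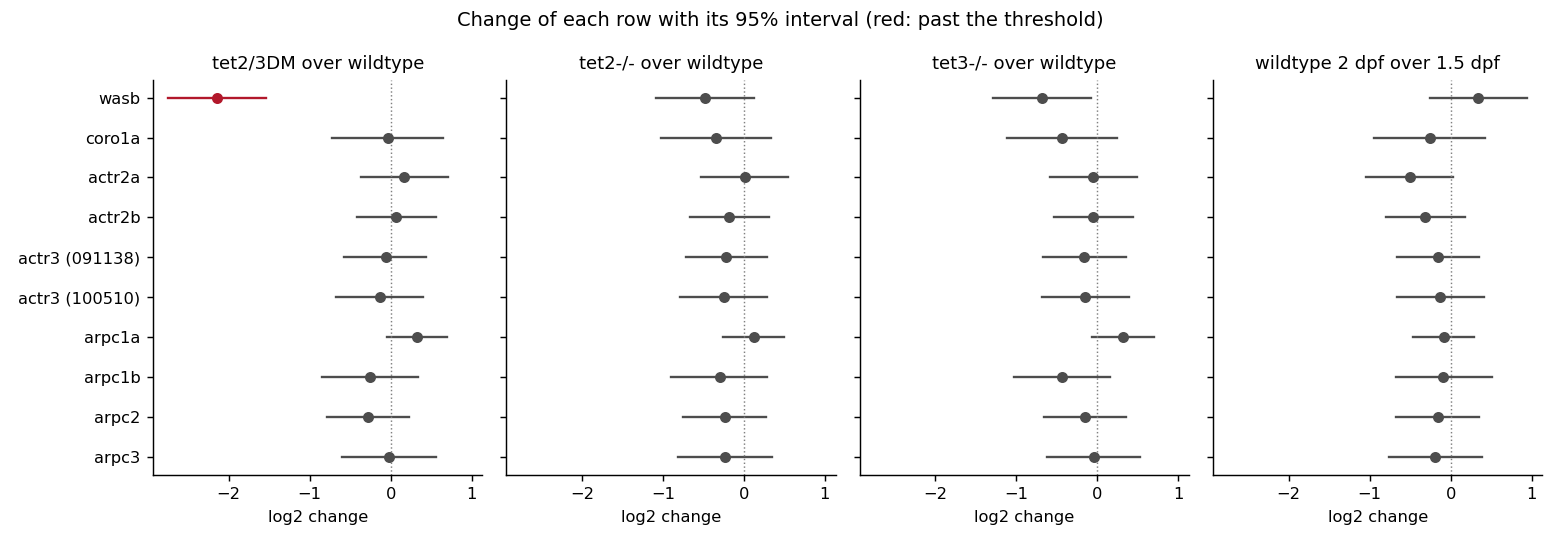
Log2 change of each of the 10 rows in the main comparisons, mutant over wildtype and 2 dpf over 1.5 dpf, as points with 95% intervals from limma; red marks an adjusted p under 0.05. The 1 red point is wasb in double mutants at -2.14, and the intervals of the other rows in that comparison lie between -0.85 and 0.71.

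Much of the spread in these genes was shared within a library. tet2 replicate 1 was the lowest of 15 libraries in 8 of the 10 rows, and wildtype at 1.5 dpf, replicate 2, was the highest in 9. The same libraries stood apart in neutrophil markers. In tet2 replicate 1 the summed level of 10 neutrophil markers was 142639, the lowest of 15, mpx was 25586, also the lowest, and the summed level of 7 epidermis markers was 88037, the highest. In replicate 2 of wildtype at 1.5 dpf the neutrophil sum was 531951 and mpx was 89852, both the highest. The part of these differences in the members' levels was not tested.

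The Arp2/3 rows differed in how closely they kept to one another. Over the 15 libraries the SD of the log2 ratio of a row to the mean of the other Arp2/3 rows was 0.1 for both actr3 rows, or 0.11 and 0.12 with the near copy left out of that mean, 0.13 for arpc2, 0.14 for arpc3 and 0.19 for actr2a and arpc1b. It was 0.26 for actr2b, the member with the fewest reads, and 0.41 for arpc1a. coro1a had an SD of 0.23 and wasb of 0.78 against the same mean. The median of 2971 genes with a mean level of at least 1000 was 0.38, which lies below arpc1a and wasb. arpc1a stood out for being steady in level, with an SD of 0.21 for its own log2 level, against 0.29 to 0.39 for the other Arp2/3 rows, and it did not share the low value of tet2 replicate 1.

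Taking the Arp2/3 mean as a yardstick within each library narrowed the spread of wasb in the tet2 and 1.5 dpf groups. The log2 level of wasb minus the mean log2 level of the Arp2/3 rows was -2.96, -2.72 and -2.91 in double mutants, against -0.85, -0.69 and -0.69 in wildtype at 2 dpf. The difference was -2.12, nearly the same as the change of wasb alone, with an exact two-sided permutation p = 0.1, the smallest possible. It was -1.16, -1.28 and -0.74 in tet2 mutants (difference from wildtype -0.32, exact permutation p = 0.2) and -1.21, -1.42 and -1.38 in tet3 mutants (-0.59, exact permutation p = 0.1). At 1.5 dpf the libraries were at -1.31, -0.98 and -1.57, below all of those at 2 dpf, and 2 dpf minus 1.5 dpf was 0.54 (exact permutation p = 0.1). On this scale the difference of double mutants from tet2 mutants was -1.8 and from tet3 mutants -1.53 (exact permutation p = 0.1 each). These p-values come from 6 comparisons on 5 groups of 3, and none of these tests can give a p below 0.1.

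**Figure D4:**
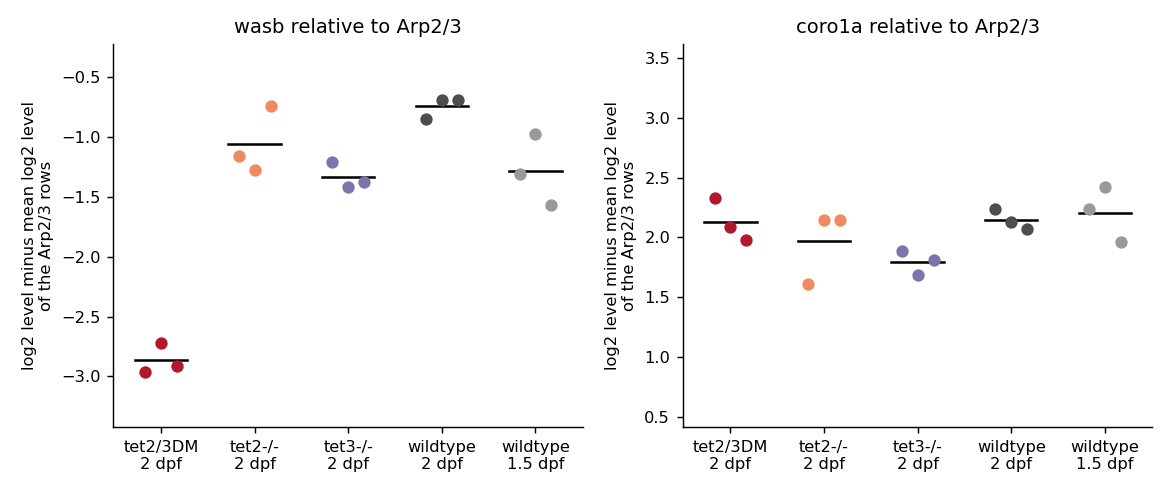
Log2 level of wasb and of coro1a minus the mean log2 level of the Arp2/3 rows in the same library, with a point for each of the 15 libraries by group. wasb in double mutants lies between -2.96 and -2.72, below the range of -1.57 to -0.69 of the other groups, while coro1a lies between 1.61 and 2.42 throughout.

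No further gene of the Arp2/3 complex passed in a mutant. Of 6 subunit rows from a list of arpc4, arpc5 and related genes, 0 passed in either direction in double, tet2 or tet3 mutants, with medians of 0.05, -0.14 and -0.01. Among all genes 8.68% passed in double and 7.27% in tet3 mutants, and in tet2 mutants 0.0314% were higher and 0.0690% lower. Between the wildtype ages 1 of the 6 was lower at 2 dpf, beside 20.8% of all genes called in either direction. arpc5a, a gene for the ARPC5 subunit, was at 3240, 3161 and 3271 at 2 dpf, against 5841, 7915 and 4501 at 1.5 dpf (log2 change -0.88, SE 0.24, limma adjusted p = 0.019). The call was lost without either of wildtype 2 dpf replicates 2 and 3 or of wildtype 1.5 dpf replicates 1 and 2.

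Of 23 further activators of Arp2/3 and their partners, 1 was lower and 0 higher in double mutants against wildtype at 2 dpf. Among all genes 5.27% were lower. The 23 had a median log2 change of -0.31, and 16 of them were below 0. Groups did not overlap in 11 that were lower and 4 that were higher, beside 15.7% and 15.5% of all genes. wipf2a, of the family of WASp-interacting proteins that bind and stabilise WASp, was at 311.6, 311.7 and 304.0 in double mutants, against 500.4, 642.3 and 528.3 in wildtype (log2 change -0.84, SE 0.2, limma adjusted p = 0.015). The call was lost without double mutant replicate 3 or wildtype replicate 2. The list held 6 further was, wasl and wipf genes, none of which passed, and all are given because their values had been seen. wipf1b averaged 3071 ± 385 in double mutants and 5201 ± 186 in wildtype (-0.77, adjusted p = 0.0508). wipf1a averaged 924.4 ± 147 in double mutants and 1535 ± 38.1 in wildtype (-0.74, adjusted p = 0.14). wasa, the paralog of wasb, averaged 667.6 ± 136 in double mutants and 1181 ± 51.8 in wildtype (-0.84, adjusted p = 0.087). wasla, a gene for the broadly expressed relative N-WASP, averaged 508.4 ± 42.4 in double mutants and 790.5 ± 123 in wildtype (-0.63, adjusted p = 0.097). The libraries of these 4 did not overlap between the groups. They overlapped for waslb, at 261.9 ± 19 in double mutants and 310.4 ± 84.6 in wildtype (-0.21, adjusted p = 0.66), and for wipf2b, at 353.4 ± 23.7 in double mutants and 275.5 ± 84.6 in wildtype (0.41, adjusted p = 0.5). The 4 rows that were higher without overlap were cttn, wasf1, cyfip2 and wash1, and none of them passed. cttn ran from 507.7 to 797.6 in double mutants and from 276.1 to 398.7 in wildtype. wasf1 ran from 75.45 to 161.5 in double mutants and from 18.03 to 46.65 in wildtype. cyfip2 ran from 1368 to 1996 in double mutants and from 1084 to 1269 in wildtype. wash1 ran from 392.1 to 439.0 in double mutants and from 324.5 to 371.8 in wildtype.

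The brakes on Arp2/3 had 1 member past the threshold in double mutants. Of 9 other coronins and Arp2/3 inhibitors, whose median was 0.02, 1 was lower and 0 higher, beside 5.27% of all genes lower. It was arpin, which encodes a protein that inhibits Arp2/3 downstream of Rac, at 121.5, 135.4 and 144.0 in double mutants, against 270.0, 356.1 and 280.2 in wildtype (log2 change -1.16, SE 0.29, limma adjusted p = 0.019). Groups did not overlap, and the call was lost without double mutant replicate 1 or without either of wildtype replicates 2 and 3.

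Formins build unbranched filaments, apart from Arp2/3. Of 9 formins 1 was lower and 0 higher in double mutants, with a median of -0.3. daam1b was at 563.0, 1090 and 1020 in double mutants, against 1332, 1780 and 1780 in wildtype (log2 change -0.92, SE 0.25, limma adjusted p = 0.033), and the call was lost without double mutant replicate 1, either of wildtype replicates 2 and 3 or both shallow tet3 libraries, and with reads thinned to 1 depth. Of 35 genes for actin, its turnover factors and its cross-linkers, 0 passed in double mutants, with a median of -0.17. The calls on wipf2a, arpin and daam1b were lost with hsp70l in the model. They are 3 of 82 rows on the 5 lists, or 3.66% lower, beside 5.27% of all genes lower.

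**Figure D5:**
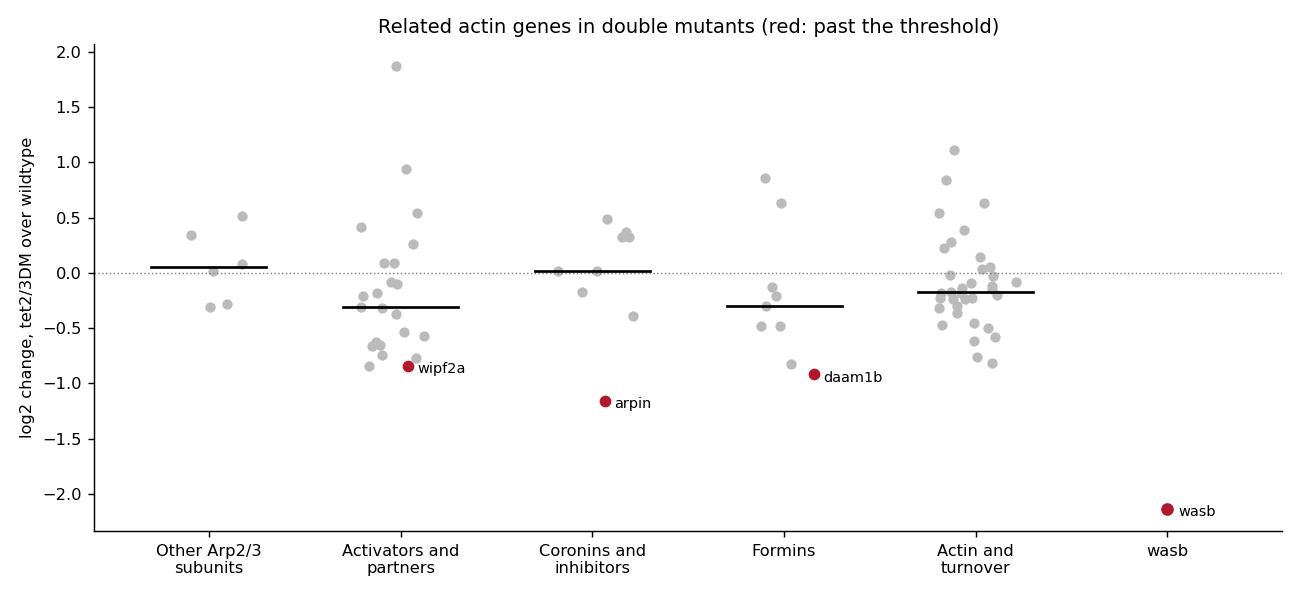
Log2 changes of the genes of 5 related lists in double mutants against wildtype at 2 dpf, with a point for each gene and a black line for the median of each list; genes past an adjusted p of 0.05 are red and named, and wasb is drawn beside them. The medians lie between -0.31 and 0.05, and the red genes of the lists lie between -1.16 and -0.84, above wasb at -2.14.

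In tet2 mutants 0 genes of these 5 lists passed against wildtype, beside 0.0314% of all genes higher and 0.0690% lower. In the interaction 0 did, beside 0.333% of all genes. In tet3 mutants the activators had 1 higher and 1 lower among 23, and the other lists had no call. That is 2 of 82 rows, or 2.44%, beside 7.27% of all genes. abi3b and abi2b encode Abi family adaptors, known as parts of the Wave complex. abi3b averaged 246.8 ± 36 in tet3 mutants and 91.28 ± 23.5 in wildtype (SD, n = 3 each, log2 change 1.45, limma adjusted p = 0.039). abi2b averaged 1393 ± 225 in tet3 mutants and 2114 ± 153 in wildtype (-0.61, adjusted p = 0.0499). The call on abi2b was lost in 16 of 29 alternative settings and that on abi3b in 11, both without any one of the tet3 or 2 dpf wildtype libraries.

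Between the wildtype ages 11 of the 82 rows passed, or 13.4%, beside 20.8% of all genes. Among the 23 activators 4 were higher and 1 lower at 2 dpf against 1.5 dpf, led by abi1b, at 452.5 ± 63.5 at 2 dpf and 105 ± 58.4 at 1.5 dpf (SD, n = 3 each, log2 change 2.22, limma adjusted p = 6e-04). The others higher were abi2b (0.78, adjusted p = 0.0065), wasla (0.83, adjusted p = 0.016), and wipf2a (0.7, adjusted p = 0.021). wash1, whose product activates Arp2/3 on endosomes, was lower (-0.89, adjusted p = 0.014). Of 9 formins 2 were higher, daam1a (1.14, adjusted p = 0.013) and daam1b (0.8, adjusted p = 0.034). Of 35 actin genes 2 were higher and 1 lower. The filament cross-linker gene flna averaged 4831 ± 348 at 2 dpf and 2967 ± 328 at 1.5 dpf (0.71, adjusted p = 0.0076), and cfl1l, a cofilin-like gene, averaged 2177 ± 265 at 2 dpf and 963.3 ± 551 at 1.5 dpf (1.33, adjusted p = 0.008). ezra, a gene for the membrane linker ezrin, averaged 34.79 ± 20.5 at 2 dpf and 156.5 ± 57.1 at 1.5 dpf (-2.23, adjusted p = 0.027). None of 9 coronins and inhibitors passed between the ages. The calls on wash1 and daam1a were lost without replicate 2 of either age. Those on wasla and daam1b were lost without replicates 2 or 3 at 2 dpf or 1 or 2 at 1.5 dpf, that on daam1b also without both shallow tet3 libraries and with reads thinned to 1 depth, that on wipf2a without replicates 2 or 3 at 2 dpf or 3 at 1.5 dpf, and that on ezra without replicates 2 or 3 of either age. All of these calls between the ages, arpc5a included, were lost with hsp70l in the model. Erythroid markers differed widely between the ages, with summed levels of 2748 to 5721 at 2 dpf and 146695 to 162969 at 1.5 dpf, and their part in these results was not tested.

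The genes whose levels ran most like wasb over the 15 libraries were different from those most like the Arp2/3 rows. Among 12192 genes with a mean of at least 50, the 5 with the highest Pearson correlation of log2 level with wasb were kctd12.2 (0.98), jak3 (0.97), pkn1b (0.96), marco (0.95) and hlx1 (0.95). jak3, which encodes a Janus kinase of cytokine receptors, averaged 115.2 in double mutants, 657.6 in tet2 mutants, 537.0 in tet3 mutants, 987.8 in wildtype at 2 dpf and 860.4 in wildtype at 1.5 dpf. pkn1b, a protein kinase N gene, averaged 501.9 in double mutants, 1275 in tet2 mutants, 925.2 in tet3 mutants, 1668 in wildtype at 2 dpf and 1310 in wildtype at 1.5 dpf. marco is also in the macrophage list above. The gene nearest to the mean of the Arp2/3 rows among 12185 was arpc4, another subunit of the same complex (0.98), followed by pald1a, atp6v1f, vimp and pgd (0.96 each). coro1a ranked 6 on that list (0.96) and 2435 on the list for wasb (0.32), and wasb ranked 3195 for the Arp2/3 mean (0.37). These correlations over libraries describe profiles that share groups, depth and sample composition.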

How the data were processed

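Neutrophil RNA (RNeasy micro kit) was sequenced from TruSeq RNA v2 libraries, per the labels' protocols. Strand is lost in these libraries, so reads of overlapping genes cannot be told apart by strand. The submitters' processing notes name TopHat, Cufflinks and DESeq2, with genome build, annotation and counter not given in the sources used here. Each deposited signal of a gene is its read count after division by the library's size factor. This was read from the values, 100% of which came out as whole reads within 0.01 of a read. Depth was 5.64 to 31.06 M reads. Chi-square per degree of freedom between replicates was 3.98 to 284.48, a ratio of their variance to sampling noise that grows with depth.

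limma 3.58.1 (R 4.3.3) was fitted to log2(value + 1) over all 15 libraries with 5 group means, a mean-variance trend and robust moderation. A filter for values of 10 or more in 3 or more libraries removed 4 genes and kept 15933. Tests were two-sided. edgeR 4.0.16 and DESeq2 1.42.0 were alternatives on recovered reads, with other pseudocounts, filters, scalings, library weights, hsp70l as a covariate, thinned reads, a replicate block and each library left out. The steps were checked on simulated data.

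The genes, related lists and tests were chosen with earlier results of these data known. All 9 genes are named, with mpx, lyz, hsp70l, tet2 and tet3 as context. Also named are at most 4 genes past the threshold per related list by smallest p, and the 5 genes most correlated with wasb and with the Arp2/3 mean. abi3b, genes of the WASp families that did not pass and the macrophage markers given beside wasb fall outside that rule. So do the activators higher in double mutants without overlap. All of these were named after their values were seen. Gene neighbours come from a RefSeq table of the assembly GRCz12tu, used for no coordinates. A further related gene list is not reported here.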

Additional observations from a re-analysis of the deposited data

How the results depend on the processing

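Of 3190 values of single members recomputed under 29 alternatives each, 3168 kept their side of the threshold, 5 lost it, 17 gained it and 0 reversed. The number of members past the threshold was 1 in double mutants against wildtype and 0 in tet2 mutants, tet3 mutants, between the wildtype ages and in the interaction, and leaving out any 1 library left these numbers as they were. With library weights it was 2 in double mutants (wasb, and actr2a at 0.43, adjusted p = 0.0024), 1 in tet3 mutants (wasb), 1 between the ages (actr2a at -0.54, adjusted p = 0.0059) and 1 in the interaction (wasb). With hsp70l as a covariate it was 0 in double mutants, and with only the groups of the comparison it was 3 in tet3 mutants (wasb, coro1a and arpc1b). With hsp70l as a covariate the change of daam1b between the ages turned to -0.3. The cause was not tested. Counts over all genes moved by more than 1.5 times in these settings: in double mutants from 1383 to 2093 with DESeq2, 7729 with library weights and 159 with hsp70l; in tet2 mutants from 16 to 32 with quantile normalization, 111 with DESeq2, 0 with only its groups and 55 with library weights; in tet3 mutants from 1159 to 3912 with only its groups, 4005 with weights and 21 with hsp70l; between the ages from 3317 to 7497 with weights and 41 with hsp70l; and in the interaction from 53 to 236 with DESeq2, 824 with weights and 81 with hsp70l. Without tet3 replicates 1 and 2 together tet2 mutants had 9 genes, tet3 mutants 47 and the interaction 2. With 1 library left out these counts ran from 688 to 1833, 7 to 85, 382 to 1607, 1845 to 3999 and 14 to 141 in the same order of comparisons. Whether the replicate numbers pair the libraries is not settled. Deviations of same-numbered libraries correlated at 0.01 to 0.19 in double mutants and wildtype, where 5 of 6 libraries correlated best with their own number. Between the wildtype ages they correlated at -0.05 to 0.15, where 4 of 6 did. The range was 0 to 0.03 in tet3 mutants and wildtype, where 2 of 6 did, and -0.16 to -0.03 in tet2 mutants and wildtype, where 0 did. With the replicate block wasb in double mutants kept its change of -2.14, with an adjusted p = 0.00087, and no member's call changed. Every member had at least 245 reads in every library.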
